A study of Mus musculus with 16 samples.

Results

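The genes described are 48 enzymes and complex subunits that modify or move chromatin, measured in CD8 T cells, a lymphocyte type able to kill infected cells. They comprise 3 DNA methyltransferases, 4 methyl-CpG binding proteins, 4 class I and 7 class II or IV histone deacetylases, 6 sirtuins, a set of 3 with the histone acetyltransferases and an acetyl-lysine reader, 4 subunits of Polycomb repressive complex 2, 3 H3K9 methyltransferases, 8 SWI/SNF subunits, 3 ISWI or CHD remodelling ATPases and 3 protein arginine methyltransferases. A probe was taken as a member's where it is no control and its gene name in the array files is a listed symbol or an older synonym of one. All 48 had a probe on the array, 92 probes in all, and 47 had at least 1 probe bright enough to test, 84 probes in all, among 18403 genes tested. Hdac11, the class IV deacetylase, stayed below the background criterion on all 16 arrays and has no further values.

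The cells were positive for CD8 and Thy1.2 and came from female C57BL/6N mice aged 7 weeks. The memory stimulated group held cells sorted for high CD44 (memory phenotype) and cultured for 4 h with the phorbol ester PMA at 10 ng/mL and the calcium ionophore ionomycin at 500 ng/mL. The memory resting group held high-CD44 cells kept for 4 h in medium alone. The naive stimulated group held cells sorted for low CD44 with the same drugs, and the naive resting group held low-CD44 cells in medium alone. Each group had 4 arrays, and sort and culture were carried out on 4 independent occasions. No allele or transgene is named in the labels, and the sources used here do not say whether animals were pooled for a sort. CD44 was the one differentiation marker of the sort, so the memory phenotype fraction is defined by that level alone, and PMA with ionomycin acts downstream of the T cell receptor rather than through it.

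DNA methyltransferases place methyl groups on cytosine, Dnmt1 mainly to copy marks after replication and Dnmt3a and Dnmt3b to set them anew, and methyl-CpG binding proteins read them. Histone acetyltransferases and deacetylases add and remove acetyl groups that go with open chromatin, while Polycomb repressive complex 2 methylates histone H3 at lysine 27 and the Suv39h enzymes and Setdb1 methylate lysine 9, marks of silenced genes. SWI/SNF, ISWI and CHD complexes use ATP to slide or eject nucleosomes. In T cells, activation is known to open chromatin at effector genes, and DNA methylation and Polycomb marks are known to restrain the genes of alternative fates.

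A level is the log2 processed signal minus the 75th percentile of its array, so that 0 is that percentile, 1 unit is a doubling, and a level is compared only with the same probe on other arrays. The percentile lay between 484.6 and 669.8 intensity units, 59.3% to 66.5% of spots were well above background, and arrays of 1 group correlated across genes at Pearson's r of 0.9784 to 0.9953 (genes are not independent replicates). Each group lay on a slide of its own with a scan of its own, so that an effect of the slide and of the group cannot be told apart. Over all 18403 genes the change had a median of -0.16 in the memory response and 0.15 in the naive response. With arrays scaled to their medians it was 0.15 and 0.12, so small changes are relative to such shifts. All 10 T cell markers with a probe were above background in every group. They counted 5 falls and 3 rises in the memory response and 7 falls and 2 rises in the naive response. Their summed linear levels were 389 to 477 in memory stimulated against 408 to 470 in memory resting cells. In naive cells the sums were 324 to 455 in stimulated against 399 to 578 in resting cells. Of 12 tested markers of monocytes, macrophages and neutrophils, 9 fell in the memory response and 8 in the naive response, with summed linear levels of 3.17 to 4.84 in memory stimulated against 14.2 to 22.9 in memory resting cells, and of 1.92 to 3.53 in naive stimulated against 8.88 to 14.9 in naive resting cells; Elane was not above background in 3 of the groups. Of 5 tested B cell markers 3 fell in memory and 1 in naive cells, with sums of 0.226 to 0.310 in memory stimulated against 1.36 to 1.65 in memory resting cells and of 0.287 to 0.454 in naive stimulated against 1.68 to 2.28 in naive resting cells, and Pax5 and Blk were above background in no group. Of 4 tested markers of CD4 and regulatory T cells 2 fell and 1 rose in both responses, with sums of 0.606 to 0.751 in memory stimulated against 3.49 to 4.52 in memory resting cells and of 0.527 to 0.632 in naive stimulated against 2.60 to 3.37 in naive resting cells, and Foxp3 was above background in no group. Of 20 genes of replicating cells 11 fell and 3 rose in memory and 9 fell and 4 rose in naive cells. Their summed linear levels were nevertheless higher after stimulation, at 261 to 303 in memory stimulated against 191 to 217 in memory resting cells. In naive cells these sums were 231 to 284 in stimulated against 151 to 197 in resting cells. Genes of dendritic cells and MHC class II, 8 tested, counted 1 rise in memory and 5 rises in naive cells, and 0 falls. The part of these marker lists in the results below was not tested. In bulk RNA such as this, fewer cells of a type and less RNA per cell cannot be told apart.

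Stimulation changed most members in both kinds of cell, and with the scaling used here the rises and falls were about equal in number. In the memory response (memory stimulated minus memory resting) 19 of the 47 members rose and 19 fell, against 31.4% and 39.1% of all genes, and 37 members had no overlap between the arrays of both groups, against 64.7% of all genes. In the naive response (naive stimulated minus naive resting) 17 rose and 18 fell, against 38.3% and 31.0%, and 33 members had no overlap, against 60.6%. The members called came to 80.9% in memory and 74.5% in naive cells, beside 70.5% and 69.2% of all genes, so the share called lies near that of genes at large. The median change of the members was -0.02 in the memory response and -0.002 in the naive response. The balance in memory cells depended on the scaling. With arrays scaled to their medians 8 of the memory falls lost their call, while Setdb1, Sirt1 and Smarcb1 gained one as rises. A gene was called at an adjusted p under 0.05 in limma, two-sided, with Benjamini-Hochberg adjustment over all genes.

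Which members rose and fell was much the same in both cell types. A set of 17 rose in both responses, namely Dnmt3a, Dnmt3b, Hdac2, Hdac3, Hdac7, Ezh2, Eed, Suz12, Suv39h2, Smarca4, Smarcc1, Smarca5, Chd1, Chd4, Prmt1, Prmt5 and Carm1. Another 15 fell in both, namely Dnmt1, Mbd2, Mbd4, Hdac1, Hdac4, Hdac5, Hdac8, Hdac10, Sirt3, Sirt5, Sirt6, Ep300, Ezh1, Smarca2 and Smarce1. Members are counted by the probe that represents them, and for Smarce1 in both responses and Mbd1 in naive cells another probe was called in the opposite direction. Mbd3 and Suv39h1 rose and Crebbp, Hdac6, Hdac9 and Sirt2 fell with a call in the memory response alone, and Arid1b, Mbd1 and Smarcb1 fell with a call in the naive response alone. Another Arid1b probe also fell in memory cells, by 0.41 (adjusted p = 0.0351, over all probes). Another Crebbp probe also fell in naive cells, by 0.55 (adjusted p = 0.0264, over all probes), as did other Sirt2 probes given below. Arid1a, Brd2, Setdb1, Sirt1, Sirt7 and Smarcd1 were called in neither, and 0 members were called in opposite directions. With median scaling 8 of the 19 falls in memory cells lost their call, namely those of Crebbp, Ep300, Hdac1, Hdac4, Hdac6, Sirt2, Sirt5 and Smarce1, with changes of -0.72 (Sirt5) to -0.09 (Crebbp) and adjusted p of 0.0734 to 0.659. Without a filter on dim probes the memory calls of Crebbp, Hdac6 and Sirt2 were lost as well (adjusted p = 0.0638, 0.054 and 0.0533). Among all genes, 26.2% rose in both, 26.2% fell in both and 4.29% fell in memory cells but rose in naive cells.

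**Figure D1:**
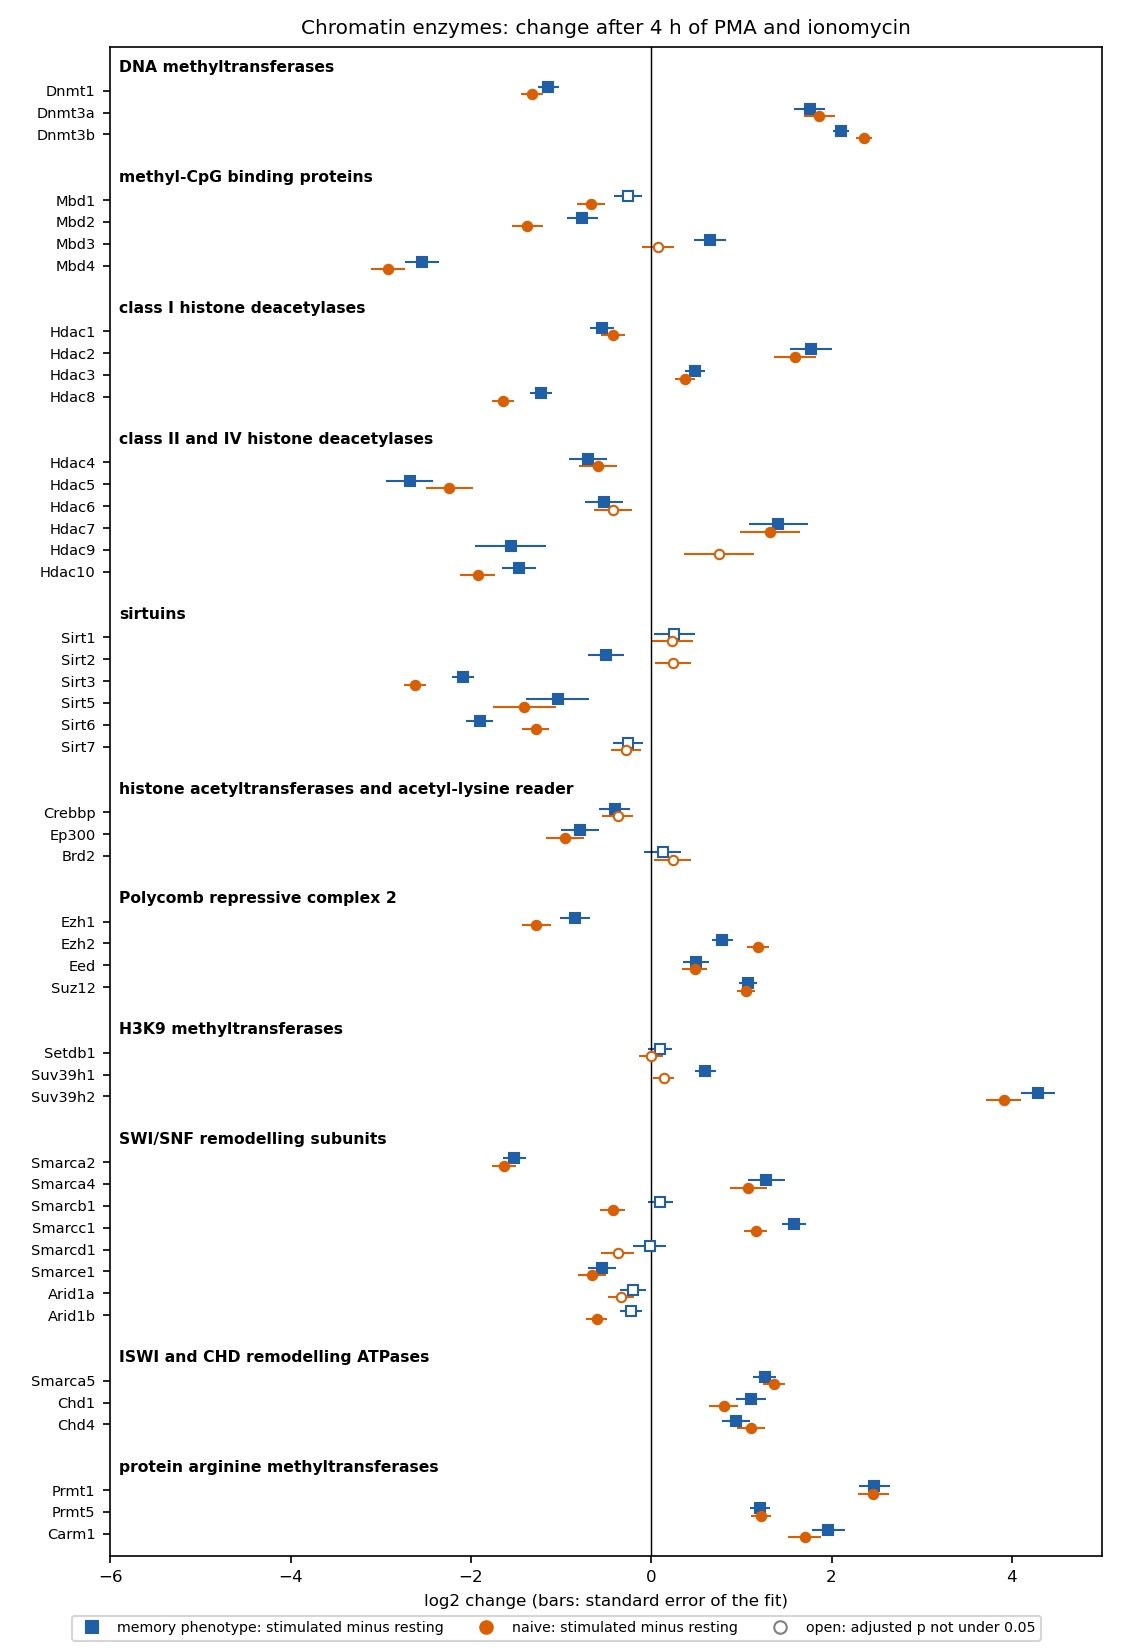
Log2 change of each member on stimulation, in memory phenotype cells (squares) and naive cells (circles), with the standard error of the fit as bars and members ordered by role. Changes run from -2.68 to 4.29 in the memory response and from -2.92 to 3.91 in the naive response, with Suv39h2 at the upper end of both.

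Several of these proteins are pairs of related enzymes, and the array has a separate probe of 60 bases for each. The probes of 5 such pairs are shown because the changes within each pair are read from them, and the capitals mark the longest run of bases that the probes of a pair share. The pairs are a selection. Dnmt3a and Dnmt3b are related too and both rose in both cell types, but are not shown as a pair.
Dnmt3b: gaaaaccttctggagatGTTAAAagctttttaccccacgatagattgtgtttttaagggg
Dnmt1: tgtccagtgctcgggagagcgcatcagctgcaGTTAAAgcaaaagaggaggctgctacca
Ezh2: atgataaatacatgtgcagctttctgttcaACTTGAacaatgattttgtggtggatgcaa
Ezh1: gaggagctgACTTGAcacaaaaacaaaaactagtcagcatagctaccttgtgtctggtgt
Smarca4: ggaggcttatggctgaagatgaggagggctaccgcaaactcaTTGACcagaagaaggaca
Smarca2: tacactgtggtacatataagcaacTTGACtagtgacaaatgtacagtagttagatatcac
Hdac2: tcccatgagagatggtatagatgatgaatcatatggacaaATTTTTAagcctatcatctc
Hdac1: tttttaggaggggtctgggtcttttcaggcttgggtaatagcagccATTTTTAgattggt
Suv39h2: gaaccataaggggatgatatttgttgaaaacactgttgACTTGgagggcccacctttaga
Suv39h1: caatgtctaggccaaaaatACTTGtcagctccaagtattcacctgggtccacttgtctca
The shared runs are 5 to 7 bases long, and the probes of these pairs hold the same base at the same position at 15 to 20 of their 60 positions, counted from the first base of each. Positions below are where the array files place each probe on mouse build mm7, and no annotation of exons, introns or UTRs was used.

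The DNA methyltransferases split by function, with both enzymes that set new marks higher and the enzyme that copies marks lower after stimulation. Dnmt3b (mm7 chromosome 2, 153428204 to 153428263) read 1.74, 1.93, 1.90 and 1.82 on the memory stimulated arrays, against -0.24, -0.22, -0.23 and -0.34 on the memory resting arrays. The same probe read 1.86, 1.99, 2.03 and 1.85 on the naive stimulated arrays, against -0.53, -0.46, -0.39 and -0.33 on the naive resting arrays. Every stimulated array lay above every resting array in both cell types. Dnmt3b rose by 2.11 ± 0.09 (SE; adjusted p = 2.37e-11), or 4.31-fold, in memory cells and by 2.36 ± 0.09 (adjusted p = 8.1e-12), or 5.13-fold, in naive cells.

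Dnmt3a (mm7 chromosome 12, 3825243 to 3826024) read 2.55, 2.51, 2.37 and 2.22 on memory stimulated arrays, against 0.61, 0.87, 0.87 and 0.28 on memory resting arrays. On naive stimulated arrays it read 2.97, 2.91, 3.01 and 2.51, against 1.07, 1.16, 1.16 and 0.55 on naive resting arrays. The groups did not overlap, and the last replicate was the lowest of its group in all 4. Dnmt3a rose by 1.76 ± 0.17 in memory cells (adjusted p = 2.26e-07) and by 1.86 ± 0.17 in naive cells (adjusted p = 1.16e-07), and all 3 of its probes rose in both. Dnmt1 (mm7 chromosome 9, 20784085 to 20784453) went the other way. It read 1.12, 0.67, 0.83 and 0.50 on memory stimulated arrays, against 2.01, 1.86, 1.91 and 1.90 on memory resting arrays. The naive stimulated arrays gave 0.77, 0.69, 0.55 and 0.45, against 1.93, 1.96, 1.97 and 1.91 on naive resting arrays. The resting arrays lay close together, and every stimulated array was below them. Dnmt1 fell by 1.14 ± 0.12 in memory cells (adjusted p = 5.87e-07) and by 1.33 ± 0.12 in naive cells (adjusted p = 1.06e-07).

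**Figure D2:**
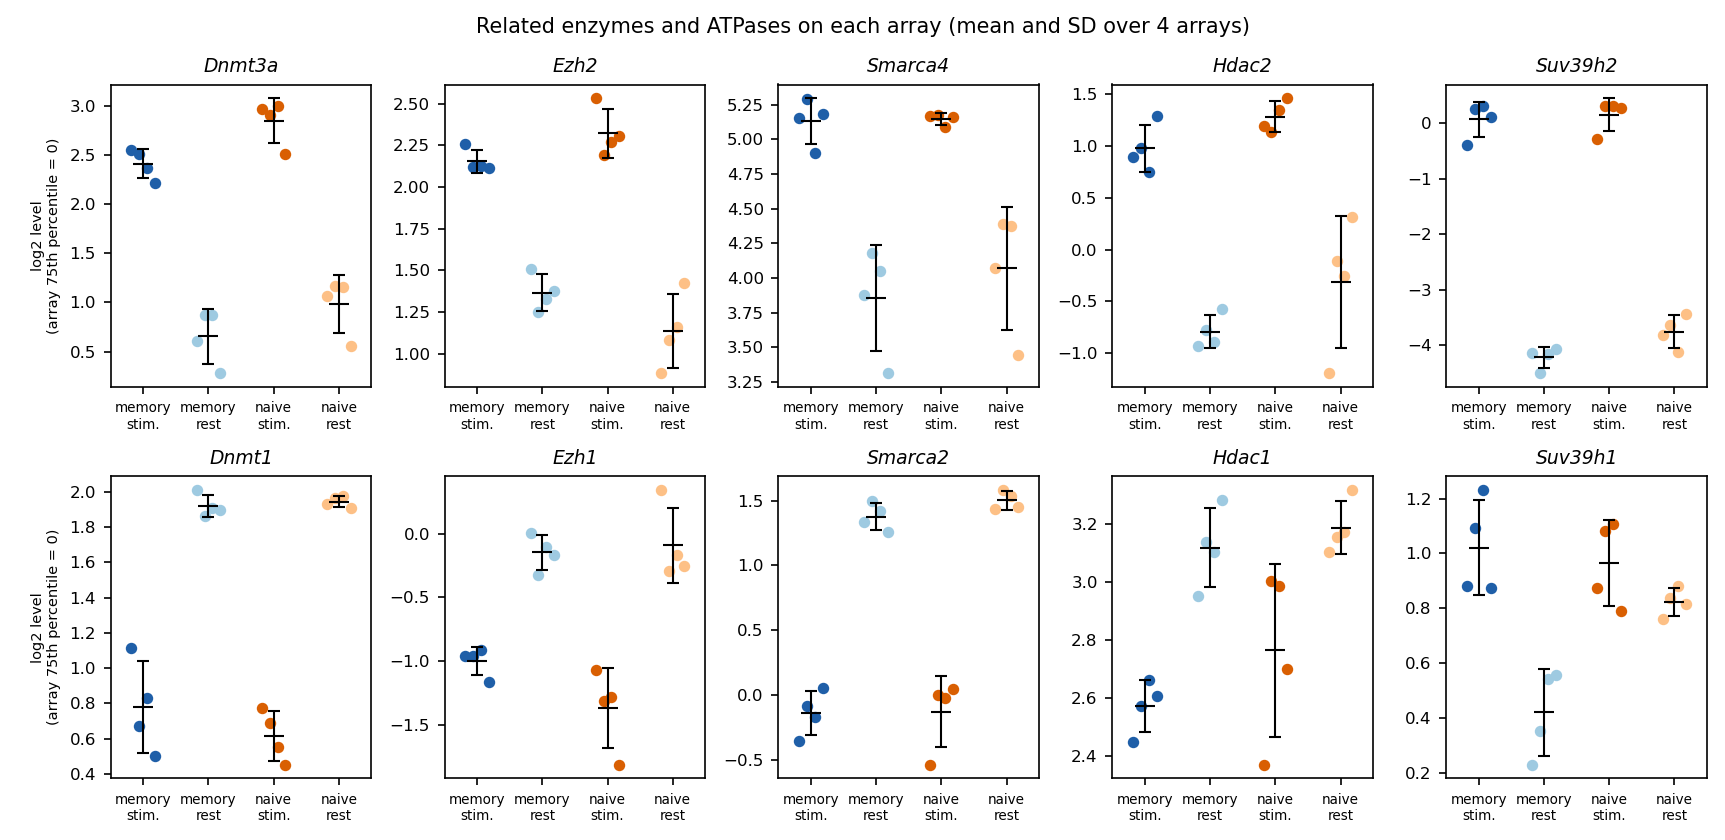
Log2 level of 5 related pairs on every array, with the mean and SD over the 4 arrays of a group; the upper row holds Dnmt3a, Ezh2, Smarca4, Hdac2 and Suv39h2 and the lower row Dnmt1, Ezh1, Smarca2, Hdac1 and Suv39h1. In the upper row every stimulated array lies above the resting arrays of its cell type, and in the lower row Dnmt1, Ezh1, Smarca2 and Hdac1 lie below them, while Suv39h1 rose in memory cells.

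Among the methyl-CpG binding proteins, Mbd4, a glycosylase that also repairs mismatches at methylated sites, showed the largest fall of any member in naive cells. Its probe (mm7 chromosome 6, 115868170 to 115868229) read -3.68, -4.06, -3.62 and -4.10 on memory stimulated arrays, against -1.27, -1.28, -1.18 and -1.57 on memory resting arrays. In naive cells it read -4.52, -3.91, -4.36 and -4.22 on stimulated arrays, against -0.88, -1.43, -1.24 and -1.79 on resting arrays. The lowest resting array was still far above the highest stimulated array of its cell type. Mbd4 fell by 2.54 ± 0.19 in memory cells (adjusted p = 9.71e-09) and by 2.92 ± 0.19 in naive cells (adjusted p = 2.05e-09). Mbd2, a reader in the NuRD complex, fell by 0.76 ± 0.17 in memory cells (adjusted p = 0.00101) and by 1.37 ± 0.17 in naive cells (adjusted p = 3.51e-06). Mbd3, the NuRD subunit that has lost most of its affinity for methylated DNA in mammals, rose by 0.65 ± 0.18 in memory cells (adjusted p = 0.00385), and its change was 0.08 in naive cells (adjusted p = 0.705). Mbd1 fell by 0.67 ± 0.16 in naive cells (adjusted p = 0.0014) on the probe that represents it, with a change of -0.26 in memory cells (adjusted p = 0.157).

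Of the class I deacetylases, which reside in the nucleus within corepressor complexes, Hdac2 and Hdac3 rose and Hdac1 and Hdac8 fell in both cell types. Hdac2 (mm7 chromosome 10, 36774774 to 36774908) read 0.90, 0.98, 0.75 and 1.29 on memory stimulated arrays, against -0.93, -0.78, -0.89 and -0.58 on memory resting arrays. In naive cells it read 1.20, 1.13, 1.34 and 1.46 on stimulated arrays, against -1.19, -0.11, -0.25 and 0.31 on resting arrays. The groups stayed apart, although the naive resting arrays were widely spread. Hdac2 rose by 1.77 ± 0.24 in memory cells (adjusted p = 7.1e-06) and by 1.60 ± 0.24 in naive cells (adjusted p = 2.14e-05).

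Hdac1 (mm7 chromosome 4, 128960910 to 128960981), which forms the catalytic pair with Hdac2 in the same complexes, read 2.45, 2.57, 2.66 and 2.61 on memory stimulated arrays, against 2.95, 3.14, 3.1 and 3.28 on memory resting arrays. Its levels were 2.37, 3.0, 2.99 and 2.70 on naive stimulated arrays, against 3.1, 3.16, 3.18 and 3.32 on naive resting arrays. The groups came close without overlapping. Hdac1 fell by 0.55 ± 0.13 in memory cells (adjusted p = 0.00189) and by 0.42 ± 0.13 in naive cells (adjusted p = 0.0107), and with arrays scaled to their medians the memory change was -0.23 (adjusted p = 0.132). Hdac8 (mm7 chromosome X, 97635086 to 97729989) read -2.17, -2.06, -1.95 and -2.28 on memory stimulated arrays, against -0.93, -0.85, -0.74 and -1.04 on memory resting arrays. In naive cells it read -2.56, -2.17, -2.28 and -2.50 on stimulated arrays, against -0.99, -0.72, -0.61 and -0.62 on resting arrays. All stimulated arrays lay below all resting ones. Hdac8 fell by 1.23 ± 0.12 in memory cells (adjusted p = 3.38e-07) and by 1.64 ± 0.12 in naive cells (adjusted p = 1.2e-08). Hdac3, the catalytic subunit of the NCoR and SMRT corepressors, rose by 0.48 ± 0.11 in memory and by 0.38 ± 0.11 in naive cells (adjusted p = 0.000987 and 0.00633), and with quantile scaling it was called in neither (0.17 with adjusted p = 0.121 in memory cells, 0.15 with adjusted p = 0.161 in naive cells).

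Of the 6 tested class II deacetylases, 1 rose and 5 fell in memory cells, and 1 rose, 3 fell and 2 were not called in naive cells. Hdac5, a class IIa enzyme that moves between nucleus and cytoplasm, had the largest fall of any member in memory cells (mm7 chromosome 11, 102304793 to 102304852). It read 0.34, 1.13, 1.35 and 1.44 on memory stimulated arrays, against 3.69, 3.71, 3.72 and 3.87 on memory resting arrays. On naive stimulated arrays it read 1.05, 2.27, 2.25 and 2.15, against 4.23, 4.28, 4.22 and 3.96 on naive resting arrays. Replicate 1 was the lowest stimulated array in both cell types, and all stimulated arrays were below all resting ones. Hdac5 fell by 2.68 ± 0.26 in memory cells (adjusted p = 2.21e-07) and by 2.24 ± 0.26 in naive cells (adjusted p = 1.67e-06).

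Hdac10, a class IIb enzyme known to act on polyamines (mm7 chromosome 15, 89205745 to 89205804), read -0.35, -0.88, -0.47 and -1.11 on memory stimulated arrays, against 0.77, 0.94, 0.89 and 0.44 on memory resting arrays. The naive stimulated arrays gave -1.84, -1.82, -2.02 and -1.91, against 0.47, 0.01, 0.01 and -0.38 on naive resting arrays. The naive stimulated arrays were the lowest of all 16. Hdac10 fell by 1.46 ± 0.19 in memory cells (adjusted p = 5.41e-06) and by 1.93 ± 0.19 in naive cells (adjusted p = 2.59e-07). Hdac7, a class IIa enzyme abundant in thymocytes, rose by 1.41 ± 0.33 in memory cells (adjusted p = 0.00138) and by 1.32 ± 0.33 in naive cells (adjusted p = 0.00234), where its groups overlapped. Hdac4, also class IIa, fell by 0.70 ± 0.21 in memory cells (adjusted p = 0.00717) and by 0.59 ± 0.21 in naive cells (adjusted p = 0.0201); its naive call was lost without naive resting replicate 1 or without naive stimulated replicate 4 (adjusted p = 0.0548 to 0.0643). Hdac6, the tubulin deacetylase, fell by 0.52 ± 0.21 in memory cells (adjusted p = 0.036) with overlapping groups, and 4 of the 16 arrays ended that call when left out (memory stimulated replicate 1 and memory resting replicates 2, 3 and 4, adjusted p = 0.0838 to 0.125).

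Most sirtuins, deacylases that need NAD, were lower after stimulation or did not pass the test, and none rose with a call on its representing probe. Sirt3, the main deacetylase of mitochondria (mm7 chromosome 7, 137280969 to 137281028), read 0.61, 0.37, 0.66 and 0.33 on memory stimulated arrays, against 2.31, 2.63, 2.57 and 2.79 on memory resting arrays. It read 0.14, -0.05, -0.12 and 0.03 on naive stimulated arrays, against 2.45, 2.65, 2.63 and 2.76 on naive resting arrays. Every stimulated array was far below the resting arrays. Sirt3 fell by 2.08 ± 0.12 in memory cells (adjusted p = 7.26e-10) and by 2.62 ± 0.12 in naive cells (adjusted p = 5.99e-11).

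Sirt6, a chromatin-bound sirtuin of the nucleus (mm7 chromosome 10, 81417014 to 81417028), stayed below the background criterion on all stimulated arrays. It read -5.45, -5.31, -5.17 and -5.77 on memory stimulated arrays, against -3.60, -3.47, -3.66 and -3.36 on memory resting arrays. Its levels were -5.64, -5.50, -5.54 and -5.59 on naive stimulated arrays, against -3.89, -4.37, -4.31 and -4.57 on naive resting arrays. The stimulated values are limits, so Sirt6 was at least 3.53-fold lower in memory cells (adjusted p = 1.85e-08) and at least 2.34-fold lower in naive cells (adjusted p = 1.61e-06), taking for each dim array its own signal or that of the dimmest probe above background, whichever was higher. This probe entered the test through the resting groups alone, so that a lower level after stimulation was part of its selection. Sirt5, a mitochondrial desuccinylase, fell by 1.03 ± 0.35 in memory cells (adjusted p = 0.0155) and by 1.41 ± 0.35 in naive cells (adjusted p = 0.00218); without memory stimulated replicate 4 the memory change was -0.82 (adjusted p = 0.0574). Sirt2, largely cytoplasmic, fell by 0.50 ± 0.20 in memory cells (adjusted p = 0.0358), a call lost without memory stimulated replicate 2 or 4 or memory resting replicate 4 (adjusted p = 0.0684 to 0.134). Sirt1 and Sirt7, a nuclear and a nucleolar enzyme, had changes of 0.26 and -0.26 in memory cells and of 0.23 and -0.28 in naive cells, and none of these passed the test.

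The acetyltransferases Ep300 and Crebbp, are close relatives that act as coactivators for many transcription factors, and both fell in memory cells. Ep300 fell by 0.79 ± 0.21 in memory cells (adjusted p = 0.00361) and by 0.95 ± 0.21 in naive cells (adjusted p = 0.000862). Crebbp fell by 0.40 ± 0.17 in memory cells (adjusted p = 0.0454), and 8 of the 16 arrays ended that call when left out (memory stimulated replicates 1 and 2, memory resting replicates 2, 3 and 4, naive stimulated replicate 4 and naive resting replicates 2 and 3; adjusted p = 0.0539 to 0.169). Its change in naive cells was -0.37 (adjusted p = 0.0653). Brd2, a bromodomain protein that binds acetylated histones, averaged 6.70 ± 0.38 in memory stimulated and 6.57 ± 0.19 in memory resting cells, and 7.03 ± 0.27 in naive stimulated and 6.8 ± 0.33 in naive resting cells (SD, n = 4 each), and passed the test in neither.

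Of the 4 subunits of Polycomb repressive complex 2, 3 rose and the alternative catalytic subunit fell in both cell types. Ezh2, the methyltransferase that prevails in dividing cells (mm7 chromosome 6, 47568744 to 47569639), read 2.26, 2.12, 2.12 and 2.11 on memory stimulated arrays, against 1.51, 1.25, 1.32 and 1.37 on memory resting arrays. On naive stimulated arrays it read 2.53, 2.19, 2.27 and 2.30, against 0.88, 1.08, 1.16 and 1.42 on naive resting arrays. No arrays overlapped between stimulated and resting cells. Ezh2 rose by 0.79 ± 0.12 in memory cells (adjusted p = 2.59e-05) and by 1.19 ± 0.12 in naive cells (adjusted p = 3.16e-07). Ezh1, its relative of resting cells (mm7 chromosome 11, 101300862 to 101300921), read -0.96, -0.96, -0.91 and -1.16 on memory stimulated arrays, against 0.01, -0.32, -0.11 and -0.17 on memory resting arrays. The naive stimulated arrays gave -1.07, -1.31, -1.28 and -1.81, against 0.34, -0.29, -0.16 and -0.25 on naive resting arrays. Here every stimulated array was below the resting ones. Ezh1 fell by 0.85 ± 0.17 in memory cells (adjusted p = 0.000291) and by 1.27 ± 0.17 in naive cells (adjusted p = 5.26e-06). Suz12, the scaffold subunit, rose by 1.07 ± 0.10 in memory cells and by 1.05 ± 0.10 in naive cells (adjusted p = 1.04e-07 and 1.32e-07). Eed, which reads the mark, rose by 0.50 ± 0.14 and by 0.48 ± 0.14 (adjusted p = 0.00536 and 0.00683), and the call was lost in both cell types with quantile scaling, where its changes were 0.02 and 0.14 (adjusted p = 0.907 and 0.362), and in the authors' deposited table, where they were -0.02 and 0.19 (adjusted p = 0.913 and 0.192).

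Suv39h2, a methyltransferase of heterochromatin, showed the largest change of any member in both cell types (mm7 chromosome 2, 3381885 to 3381944). It read -0.38, 0.26, 0.31 and 0.12 on memory stimulated arrays, against -4.14, -4.50, -4.15 and -4.06 on memory resting arrays. Its levels were -0.28, 0.32, 0.31 and 0.29 on naive stimulated arrays, against -3.82, -3.63, -4.12 and -3.44 on naive resting arrays. Stimulated and resting arrays were far apart, and all 16 were above background. Suv39h2 rose by 4.29 ± 0.19 (adjusted p = 3.44e-11), or 19.6-fold, in memory cells and by 3.91 ± 0.19 (adjusted p = 9.37e-11), or 15-fold, in naive cells. Its other tested probe rose by 3.05 in memory and by 3.40 in naive cells, while its remaining 3 probes were not above background on any array.

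Suv39h1, the paralogue on the X chromosome (mm7 6494869 to 6494928), read 0.88, 1.09, 1.23 and 0.88 on memory stimulated arrays, against 0.23, 0.35, 0.54 and 0.56 on memory resting arrays. In naive cells it read 0.87, 1.08, 1.11 and 0.79 on stimulated arrays, against 0.76, 0.84, 0.88 and 0.81 on resting arrays. The memory groups were apart and the naive groups overlapped. Suv39h1 rose by 0.60 ± 0.12 in memory cells (adjusted p = 0.000289), and its change in naive cells was 0.14 (adjusted p = 0.294). Setdb1, which methylates lysine 9 at retroelements, averaged 0.51 ± 0.21 in memory stimulated and 0.41 ± 0.09 in memory resting cells, and 0.64 ± 0.21 in naive stimulated and 0.65 ± 0.19 in naive resting cells (SD, n = 4 each), and was called in neither.

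Within SWI/SNF the alternative ATPases moved in opposite directions. Smarca4, also called Brg1 (mm7 chromosome 9, 21520316 to 21521714), read 5.16, 5.29, 4.90 and 5.18 on memory stimulated arrays, against 3.88, 4.18, 4.05 and 3.31 on memory resting arrays. On naive stimulated arrays it read 5.17, 5.18, 5.09 and 5.16, against 4.07, 4.39, 4.38 and 3.44 on naive resting arrays. Replicate 4 was the lowest resting array in both cell types, and no groups overlapped. Smarca4 rose by 1.28 ± 0.21 in memory cells (adjusted p = 5.27e-05) and by 1.08 ± 0.21 in naive cells (adjusted p = 0.000263), and with quantile scaling the naive change was 0.57 (adjusted p = 0.0521).

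Smarca2, or Brm (mm7 chromosome 19, 26477929 to 26477988), read -0.36, -0.09, -0.17 and 0.05 on memory stimulated arrays, against 1.33, 1.5, 1.42 and 1.25 on memory resting arrays. The naive stimulated arrays gave -0.54, -0.0014, -0.03 and 0.05, against 1.43, 1.58, 1.53 and 1.45 on naive resting arrays. Each stimulated array was below all resting arrays. Smarca2 fell by 1.52 ± 0.13 in memory cells (adjusted p = 6.13e-08) and by 1.63 ± 0.13 in naive cells (adjusted p = 2.72e-08). Smarcc1, a core scaffold also called BAF155, rose by 1.59 ± 0.13 in memory and by 1.16 ± 0.13 in naive cells (adjusted p = 2.95e-08 and 1.05e-06). Arid1b, which occupies the same place as Arid1a in the complex, fell by 0.60 ± 0.12 in naive cells (adjusted p = 0.000297), with a change of -0.22 in memory cells (adjusted p = 0.101). Smarcb1, a core subunit, fell by 0.43 ± 0.14 in naive cells (adjusted p = 0.0123) with overlapping groups, with a change of 0.10 in memory cells (adjusted p = 0.524). Arid1a, at -0.20 and -0.33, and Smarcd1, at -0.02 and -0.37, did not pass in memory or naive cells. Smarce1, or BAF57, fell by 0.55 ± 0.16 and by 0.66 ± 0.16 on its brightest probe (adjusted p = 0.00584 and 0.00166), and its probes did not move together.

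The 3 remodelling ATPases of the ISWI and CHD families rose in both cell types. Smarca5, the ISWI motor also called Snf2h, rose by 1.26 ± 0.12 in memory cells and by 1.36 ± 0.12 in naive cells (adjusted p = 2.22e-07 and 9.32e-08). Chd1, which works at transcribed genes, rose by 1.11 ± 0.16 and by 0.80 ± 0.16 (adjusted p = 2.01e-05 and 0.000438), and Chd4, the motor of NuRD, by 0.94 ± 0.15 and by 1.11 ± 0.15 (adjusted p = 5.81e-05 and 1.08e-05). The stimulated and resting arrays of all 3 were apart in both cell types.

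All 3 protein arginine methyltransferases rose by more than a doubling in both. Prmt1, the main source of asymmetric dimethylarginine (mm7 chromosome 7, 41154450 to 41154509), read 5.98, 6.09, 6.04 and 6.38 on memory stimulated arrays, against 3.40, 3.70, 3.69 and 3.80 on memory resting arrays. Its levels were 6.27, 6.32, 6.41 and 6.21 on naive stimulated arrays, against 3.29, 3.84, 3.95 and 4.29 on naive resting arrays. Every stimulated array was far above the resting arrays. Prmt1 rose by 2.47 ± 0.17 (adjusted p = 4.63e-09), or 5.55-fold, in memory cells and by 2.46 ± 0.17 (adjusted p = 5e-09), or 5.50-fold, in naive cells.

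Carm1, a coactivator that methylates arginine on histone H3 (mm7 chromosome 9, 21466770 to 21466829), read 2.20, 1.85, 2.09 and 1.71 on memory stimulated arrays, against -0.02, -0.15, 0.10 and 0.06 on memory resting arrays. On naive stimulated arrays it read 2.26, 1.75, 1.85 and 1.30, against 0.47, -0.15, -0.02 and 0.05 on naive resting arrays. The groups were apart in both cell types. Carm1 rose by 1.96 ± 0.19 in memory cells (adjusted p = 1.54e-07) and by 1.70 ± 0.19 in naive cells (adjusted p = 7.94e-07). Prmt5, which makes symmetric dimethylarginine, rose by 1.21 ± 0.11 and by 1.22 ± 0.11 (adjusted p = 1.41e-07 and 1.3e-07).

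Between memory phenotype and naive cells fewer members were called than in either response, and how many depended on the scaling and on single arrays. At rest, 3 members were higher and 1 was lower in memory cells, against 13.9% and 7.66% of all genes, and 5 members had no overlap between the groups, against 22.6% of all genes. With median scaling, which moved the median difference of all genes to -0.22, 11 members were lower, and the number lower was 7 without naive resting replicate 1, 2 without memory stimulated replicate 3 and 0 without memory resting replicate 1 or 2 or naive resting replicate 2 or 3. Hdac9, a class IIa deacetylase known to restrain regulatory T cells, read -4.65, -4.24, -4.61 and -4.75 on memory resting arrays, against -4.99, -6.74, -5.84 and -7.45 on naive resting arrays (mm7 chromosome 12, 32232465 to 32232524). All 4 memory resting arrays were above background and 1 of the naive resting arrays was. The difference was 1.70 ± 0.39 (adjusted p = 0.00598), a value set against mostly unmeasured naive arrays. The probe entered the test through memory resting cells alone, so that a higher level there was part of its selection. A second Hdac9 probe, on the same chromosome at 32214715 to 32214774, was above background in memory resting cells alone, where it read -4.80, -3.54, -4.08 and -4.12, against -7.05, -7.45, -7.28 and -6.56 on naive resting arrays. By that probe Hdac9 was at least 2.87-fold higher in memory resting cells (adjusted p = 5.37e-05, over all probes), and since this probe too was tested through that group alone, it is no independent support.

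Sirt6 was higher in memory resting cells by 0.76 ± 0.15 (adjusted p = 0.00191), on the resting arrays given above, which did not overlap. Hdac10 was higher by 0.73 ± 0.19 (adjusted p = 0.0126) with 1 naive resting array, at 0.47, above the lowest memory resting array, at 0.44, and its second probe differed by 0.64 (adjusted p = 0.0354). Suv39h1 was lower in memory resting cells by 0.40 ± 0.12 (adjusted p = 0.0229), with all 4 memory resting arrays under the naive ones. That call was lost without memory resting replicate 1 or 2 or naive resting replicate 2 or 3 (adjusted p = 0.0562 to 0.0765). Hdac5 and Chd1 were also lower on all memory resting arrays than on all naive resting arrays, at -0.42 (adjusted p = 0.271) and -0.46 (adjusted p = 0.0574), without passing the test. The other Chd1 probes differed by -0.50 (adjusted p = 0.0256, over all probes), which passed, and by -0.33 (adjusted p = 0.385), which did not.

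After stimulation 2 members were higher and 2 lower in memory cells, against 10.1% and 14.1% of all genes, and 4 members had no overlap, against 27.7% of all genes. With median scaling 9 were higher, and the number higher was 6 without naive stimulated replicate 1 and 4 without memory stimulated replicate 4, while 1 was lower without memory stimulated replicate 1 or naive stimulated replicate 2, 3 or 4. Hdac10 was higher in memory stimulated cells by 1.20 ± 0.19 (adjusted p = 0.000363), its lowest memory array at -1.11 and its highest naive array at -1.82. The other Hdac10 probe differed by 1.0 (adjusted p = 0.00214). Sirt3 was higher by 0.49 ± 0.12 (adjusted p = 0.00895), with memory stimulated arrays at 0.33 to 0.66 and naive stimulated arrays at -0.12 to 0.14. Hdac5 was lower by 0.86 ± 0.26 (adjusted p = 0.0259) with overlapping groups, and the call was lost without memory stimulated replicate 1 or naive stimulated replicate 2, 3 or 4 (adjusted p = 0.0719 to 0.0854). Sirt2 (mm7 chromosome 7, 25722588 to 25722647) read 1.70, 1.5, 1.72 and 1.58 on memory stimulated arrays, against 2.06, 2.51, 2.20 and 2.69 on naive stimulated arrays. The groups were apart, and Sirt2 was lower by 0.74 ± 0.20 (adjusted p = 0.0142), which became -0.63 (adjusted p = 0.0501) without naive stimulated replicate 4. The other Sirt2 probes differed by 0.06 (adjusted p = 0.753) and 0.23 (adjusted p = 0.252), and the mean of its probes gave -0.15 (adjusted p = 0.34). Suz12 was the fourth member with no overlap, at -0.17 (adjusted p = 0.216). A further probe of Dnmt3a was lower by 0.37 (adjusted p = 0.032, over all probes). A dim further probe of Smarce1, above background on 1 memory stimulated array, was lower by 1.70 (adjusted p = 0.0238, over all probes). The probes that represent Dnmt3a and Smarce1 did not pass the test.

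**Figure D3:**
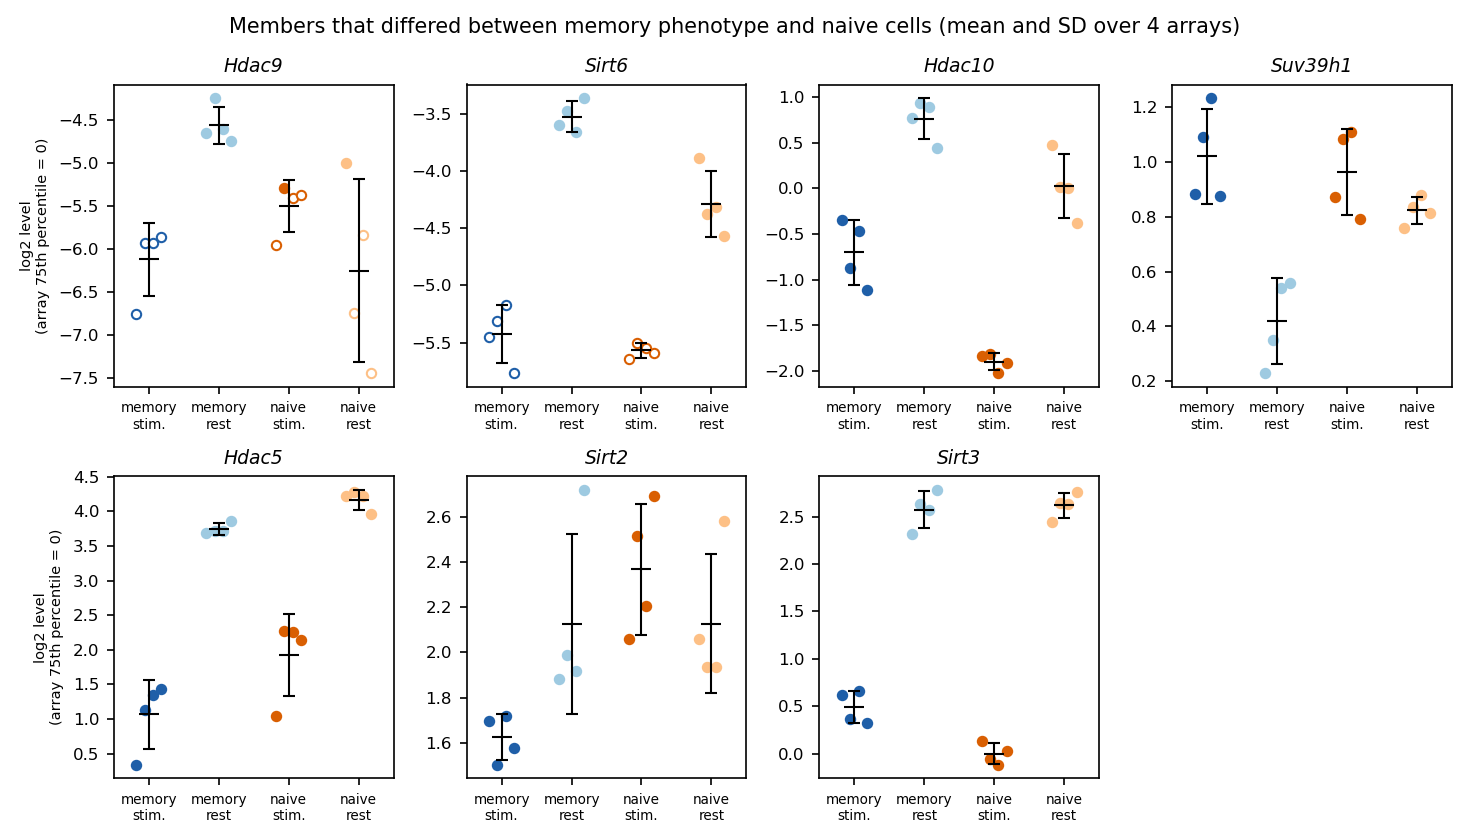
Log2 level on every array of the 7 members that differed between memory phenotype and naive cells, at rest or after stimulation; black bars give the mean and SD over 4 arrays and open points were not well above background. The memory resting arrays of Hdac9 lie at -4.75 to -4.24 and the memory stimulated arrays of Hdac10 at -1.11 to -0.35, above their naive counterparts.

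The responses of the cell types were set against each other by the response difference, the memory response minus the naive response. It was above 0 with a call for 1 member and below 0 for 1, against 5.9% and 14.1% of all genes. With median scaling, which moved the median of all genes to 0.34, it was above 0 for 15 members. It was above 0 for 4 without naive stimulated replicate 1, for 3 without naive resting replicate 1 or memory resting replicate 4, for 2 without memory stimulated replicate 4, and for 0 without any 1 of 10 other arrays, all among those that end the Sirt3 call below. It was below 0 for 3 without naive resting replicate 4 and for 2 without naive resting replicate 1 or memory stimulated replicate 3. Hdac9 had the larger difference. Its probe read -6.75, -5.93, -5.93 and -5.86 on memory stimulated arrays, none above background, and -5.95, -5.29, -5.41 and -5.37 on naive stimulated arrays, of which 1 was above background. Against the memory resting level given above, Hdac9 was at least 1.92-fold lower in memory stimulated cells (adjusted p = 0.0023), while the naive change was 0.75 ± 0.39 (adjusted p = 0.0996). Without replicate 1 of all groups, a setting chosen after seeing the data, the naive change was 1.32 (adjusted p = 0.00328). The response difference was -2.31 ± 0.55 (adjusted p = 0.00823), a value that rests on signals near background in 3 of the 4 groups. On the second probe Hdac9 was at least 2.58-fold lower in memory stimulated than in memory resting cells (adjusted p = 2.33e-06, over all probes). Both probes entered the test through memory resting cells alone, so that a fall from that level was part of their selection. The same selection bears on the response difference, and the second probe is no independent support for the first.

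Dim signals at large also differed between these groups. Over 1106 probes for olfactory, vomeronasal, taste and trace amine receptors, the median level was -6.78 in memory stimulated, -6.32 in memory resting, -6.29 in naive stimulated and -6.83 in naive resting cells, and 28.3%, 37.3%, 34.8% and 28.3% of their spots were well above background in that order of groups. Memory resting and naive stimulated cells were the higher groups for these probes, and for the probe that represents Hdac9 too. On the second Hdac9 probe naive stimulated cells averaged -7.52 and naive resting cells -7.09, with 0 arrays above background in both groups. Its naive change was -0.43 (adjusted p = 0.328, over all probes). The part of such a shift in the Hdac9 and Sirt6 values was not tested. With normexp background correction, which adds an offset of 50 and so compresses dim signals, the Hdac9 resting difference was 0.17 (adjusted p = 0.329), its memory response -0.09 (adjusted p = 0.501) and its response difference -0.21 (adjusted p = 0.422), and for Sirt6 the resting difference was 0.18 (adjusted p = 0.203) and the naive response -0.21 (adjusted p = 0.0578).

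Sirt3 had the other called response difference. It fell less in memory than in naive cells, by 0.54 ± 0.17 (adjusted p = 0.0396), from resting levels of 2.57 ± 0.20 in memory and 2.62 ± 0.13 in naive cells (SD, n = 4 each) that did not pass the test between them (-0.05, adjusted p = 0.823). This call was lost when any 1 of 11 arrays was left out (memory stimulated replicates 1 and 3, memory resting replicates 1, 2 and 3, naive stimulated replicates 2, 3 and 4 and naive resting replicates 2, 3 and 4; adjusted p = 0.056 to 0.0797) and with quantile scaling (0.44, adjusted p = 0.0584). Just beyond the threshold were Sirt6 at -0.62 (adjusted p = 0.0515), Suv39h1 at 0.46 (adjusted p = 0.0629) and Smarcb1 at 0.53 (adjusted p = 0.0706). The Sirt6 value rests on stimulated signals below the background criterion. For the other 45 members the responses did not differ with a call.

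Other marker lists moved with these comparisons. Of 20 genes of replicating cells, 12 were higher in memory than in naive cells both at rest and after stimulation, with summed linear levels of 261 to 303 in memory stimulated, 191 to 217 in memory resting, 231 to 284 in naive stimulated and 151 to 197 in naive resting cells. Of 9 tested markers of NK and NKT cells, 8 were higher in memory cells at rest and 9 after stimulation, with sums of 47.1 to 73.5 in memory stimulated, 22.0 to 28.7 in memory resting, 14.0 to 22.3 in naive stimulated and 6.56 to 11.1 in naive resting cells, and Ncr1 and Klrk1 were not above background in naive cells. Of 8 tested genes of dendritic cells and MHC class II, 6 were higher in memory cells at rest, with sums of 5.09 to 7.45 in memory stimulated, 5.07 to 9.55 in memory resting, 4.62 to 9.91 in naive stimulated and 1.46 to 8.28 in naive resting cells, and Siglech was above background in memory resting cells alone. Of 4 tested markers of CD4 and regulatory T cells 2 were higher in memory cells at rest and 1 after stimulation. For 12 markers of monocytes, macrophages and neutrophils these counts were 3 and 2. Of 10 T cell markers 1 was lower at rest, and 4 were higher and 1 lower after stimulation. Of 5 B cell markers 1 was lower after stimulation. Of 3 markers of erythrocytes and platelets 1 was higher at rest and 1 lower after stimulation. The part of all these lists in the member differences was not tested.

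Members with several probes were mostly read alike by all of them. Of the 47 tested members, 23 had 1 tested probe and 24 had several, up to 4. Smarce1 had probes called in opposite directions in both responses, shown here because the direction depends on which is read, in lower case throughout as they share no marked part.
Smarce1 A_51_P435891: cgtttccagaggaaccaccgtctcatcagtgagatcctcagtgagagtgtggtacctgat
Smarce1 A_52_P182741: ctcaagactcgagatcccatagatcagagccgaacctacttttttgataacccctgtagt
The first (mm7 chromosome 11, 99324225 to 99324284) rose by 0.74 in memory cells (adjusted p = 0.000166) and by 0.48 in naive cells (adjusted p = 0.00535). The second (mm7 chromosome 11, 99318221 to 99318280), which represents the gene, fell by 0.55 and by 0.66 (adjusted p = 0.00595 and 0.00169). The mean of the 4 tested probes gave 0.10 in memory and 0.39 in naive cells (adjusted p = 0.623 and 0.0532) and passed the test in neither, so the fall counted for Smarce1 is that of its representing probe. Mbd1 had a probe that rose by 1.15 in memory and by 1.04 in naive cells (adjusted p = 0.00013 and 0.000326), whereas its other 2 probes fell in naive cells by 0.67 and 0.44. The mean of the Mbd1 probes changed by -0.02 in naive cells (adjusted p = 0.905). For Sirt2, the probes that do not represent it fell in naive cells by 0.29 and 0.54 (adjusted p = 0.0339 and 0.00281), while the representing probe was at 0.24 (adjusted p = 0.3).

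**Figure D4:**
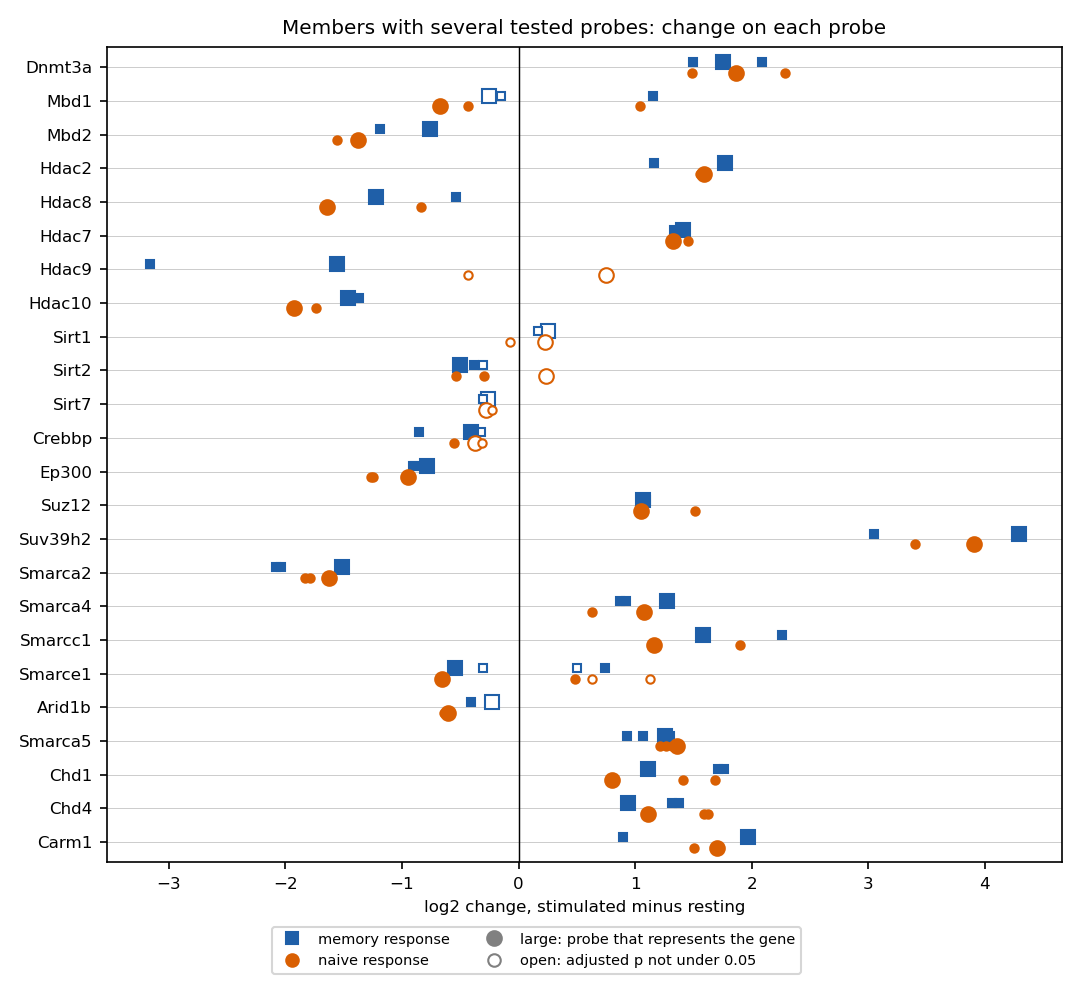
Log2 change on stimulation for every tested probe of the 24 members with several, in memory cells (squares) and naive cells (circles); large symbols represent the gene and open symbols did not pass the test. Smarce1 has probes on both sides of 0, at 0.74 and -0.55 in memory cells while both tested Suv39h2 probes lie far above 0.

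The promoters of 3 members with large changes are given to show the sequence just around their starts, 250 bases before and 50 after, on the strand of the gene from RefSeq (build GRCm38.p6). Suv39h2 (chr2:3474937-3475236) and Prmt1 (chr7:44986371-44986670) rose and Hdac5 (chr11:102230123-102230422) fell, and all lie on the minus strand. Capitals mark a match to one of the motifs searched.
Suv39h2: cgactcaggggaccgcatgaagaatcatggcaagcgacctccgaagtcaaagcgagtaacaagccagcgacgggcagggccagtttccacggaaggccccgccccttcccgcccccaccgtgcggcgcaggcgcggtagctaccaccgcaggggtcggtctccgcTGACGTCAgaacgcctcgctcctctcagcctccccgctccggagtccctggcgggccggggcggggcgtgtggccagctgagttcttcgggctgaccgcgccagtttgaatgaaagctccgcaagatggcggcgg
Prmt1: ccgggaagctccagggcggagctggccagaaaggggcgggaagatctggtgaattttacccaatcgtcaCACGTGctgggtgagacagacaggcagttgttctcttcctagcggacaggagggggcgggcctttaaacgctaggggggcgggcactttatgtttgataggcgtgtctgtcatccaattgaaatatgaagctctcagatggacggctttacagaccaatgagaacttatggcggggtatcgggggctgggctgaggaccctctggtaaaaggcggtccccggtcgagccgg
Hdac5: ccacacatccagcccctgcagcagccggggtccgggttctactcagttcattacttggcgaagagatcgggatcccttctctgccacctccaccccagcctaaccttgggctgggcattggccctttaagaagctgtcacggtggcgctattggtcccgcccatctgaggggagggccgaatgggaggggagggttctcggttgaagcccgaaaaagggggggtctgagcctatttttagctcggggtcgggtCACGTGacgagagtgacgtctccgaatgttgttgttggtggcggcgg
The windows of Suv39h2, Prmt1 and Hdac5 hold 33, 17 and 18 CpG sites. Over the 55 windows of members the median was 24, against 13 over the 21263 windows of all genes listed. The motifs searched on both strands were CACGTG (the E-box of Myc and related factors), TGANTCA (AP-1), TGACGTCA (the cAMP response element), and TTTGGCGC and TTTCGCGC (E2F), and none of these forms contains another.

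A promoter was at hand for 40 members, of which 14 rose in both responses and 11 fell in both. CACGTG was found in 4, namely Dnmt3a, Hdac5, Prmt1 and Sirt1, and in 8.91% of all 17492 genes with a promoter. TGANTCA was found in 4, namely Hdac7, Hdac9, Smarca2 and Smarcb1, and in 8.12% of all genes. TGACGTCA was found in Suv39h2, at -85 from the start, and in 2.54% of all genes. TTTGGCGC was found in Dnmt1 and Ezh2 (0.726% of all genes) and TTTCGCGC in Dnmt1 (0.526%). Among the members with CACGTG, 2 rose in both responses and 1 fell in both, so the motif was present on both sides. A match describes letters in the window and no site.

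Most of the other chromatin regulators also changed on stimulation. Of 161 further genes in 9 lists, 156 were tested; 65 rose and 54 fell in the memory response (76.3% called), and 56 rose and 66 fell in the naive response (78.2% called), beside 70.5% and 69.2% of all genes. Between memory and naive cells 7 were higher and 24 lower at rest, 15 higher and 11 lower after stimulation, and 16 and 6 had a response difference above and below 0. The calls come to 19.9% of the 156 at rest and 16.7% after stimulation, beside 21.5% and 24.2% of all genes, and the response differences to 10.3% above and 3.85% below 0, beside 5.9% and 14.1%. Genes were named as the 2 largest rises and falls of each list.

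Among partners of DNA methylation, Tet2, an oxidase of methylcytosine, rose by 1.72 ± 0.22 in memory and by 0.79 ± 0.22 in naive cells, and Tdg, the glycosylase that removes oxidised methylcytosine, rose by 1.18 ± 0.10 and by 2.44 ± 0.10. Uhrf2 fell by 0.59 ± 0.15 and by 0.70 ± 0.15. In the list of Polycomb partners, 9 of 21 rose and 9 fell in memory cells and 5 rose and 7 fell in naive cells. Cbx2 and Cbx8, which read methylated lysine 27, fell by 3.98 ± 0.34 and 3.60 ± 0.31 in memory cells and by 4.55 ± 0.34 and 3.47 ± 0.31 in naive cells, while Pcgf6 rose by 2.05 ± 0.13 and by 1.82 ± 0.13 and the histone binder Rbbp7 by 1.64 ± 0.15 and by 1.42 ± 0.15.

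Other acetyltransferases and readers counted 5 rises and 7 falls of 17 in memory cells and 4 and 7 in naive cells. Hat1, which acetylates new histone H4, rose by 1.77 ± 0.10 and by 1.87 ± 0.10, Kat2b (PCAF) fell by 2.38 ± 0.25 and by 1.73 ± 0.25, and Brd9 fell by 1.60 ± 0.11 and by 1.57 ± 0.11. Kat2a was named for its rise of 1.32 ± 0.13 in memory cells and Brd7 for its rise of 0.88 ± 0.10 in naive cells. Of 27 other lysine methyltransferase genes 8 rose and 12 fell in memory cells and 8 rose and 16 fell in naive cells. Smyd2 rose by 3.32 ± 0.15 and by 2.95 ± 0.15, Smyd5 by 3.30 ± 0.15 in memory cells, and Dot1l, the enzyme of lysine 79, by 3.95 ± 0.16 in naive cells, whereas Kmt5c fell by 2.89 ± 0.13 and by 3.18 ± 0.13 and Nsd3 by 2.71 ± 0.13 and by 3.60 ± 0.13.

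The list of lysine demethylases and related genes held 19, of which 7 rose and 9 fell in memory cells and 6 rose and 12 fell in naive cells. Kdm6b, which removes the Polycomb mark, rose by 3.33 ± 0.28 and by 2.81 ± 0.28, Jmjd6 by 1.72 ± 0.10 in memory cells and Kdm2b by 2.15 ± 0.15 in naive cells. Kdm4d fell by 2.07 ± 0.18 and by 2.21 ± 0.18 and Phf8 by 0.91 ± 0.10 and by 1.19 ± 0.10. In the list of other remodelling subunits, 10 of 24 rose and 6 fell in memory cells and 9 rose and 11 fell in naive cells. The ATPases Ruvbl1 and Ruvbl2 rose by 2.84 ± 0.13 and 2.53 ± 0.14 in memory cells and by 2.67 ± 0.13 and 1.92 ± 0.14 in naive cells, Chd3 fell by 1.09 ± 0.21 and by 1.73 ± 0.21, Chd2 fell by 1.72 ± 0.16 in memory cells and Bptf fell by 1.63 ± 0.09 in naive cells.

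Corepressor subunits counted 9 rises and 4 falls of 19 in memory cells and 8 and 6 in naive cells. Rcor2 rose by 3.95 ± 0.18 and by 3.07 ± 0.18 and Sap30 by 1.66 ± 0.13 and by 1.88 ± 0.13, while Rcor3 fell by 2.91 ± 0.17 and by 2.73 ± 0.17 and Mta3 by 2.28 ± 0.10 and by 2.66 ± 0.10. The 6 further arginine methyltransferase and sirtuin genes counted 4 rises and 2 falls in both responses. Prmt6 rose by 3.21 ± 0.13 and by 3.16 ± 0.13, Wdr77, the partner of Prmt5, rose by 3.04 ± 0.15 and by 2.75 ± 0.15, Prmt2 fell by 3.26 ± 0.15 and by 3.87 ± 0.15, and Sirt4 fell by 0.63 ± 0.20 and by 0.85 ± 0.20. Of 14 histone chaperones 9 rose and 3 fell in memory cells and 10 rose and 3 fell in naive cells. Anp32b rose by 1.98 ± 0.12 and by 1.90 ± 0.12 and Set by 1.89 ± 0.10 and by 1.80 ± 0.10, Asf1b fell by 1.07 ± 0.23 and by 0.97 ± 0.23, Anp32a fell by 0.72 ± 0.12 in memory cells and Chaf1a by 0.97 ± 0.18 in naive cells. The largest adjusted p among these named changes was 0.0102, for Sirt4 in memory cells, and every group named was above background on all its arrays.

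**Figure D5:**
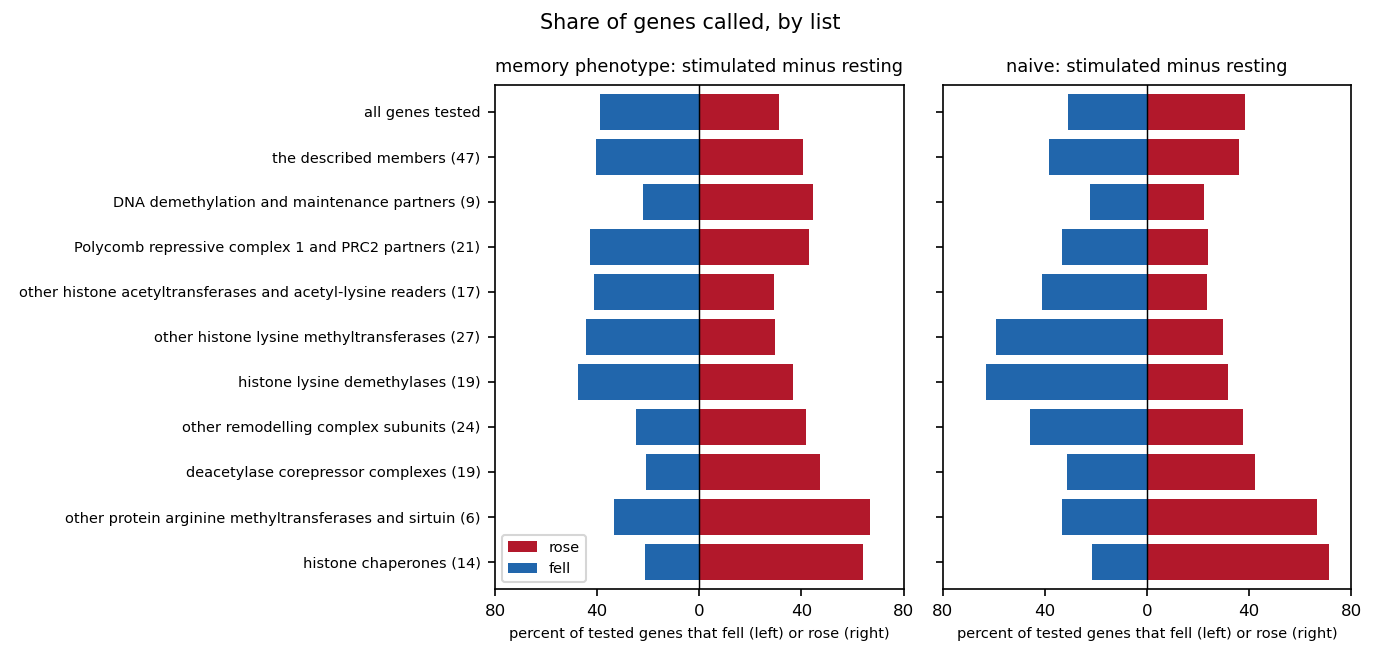
Percent of tested genes that rose (right) and fell (left) on stimulation in memory phenotype and naive cells, for all genes tested, the described members and the 9 lists of other chromatin regulators, with the number of tested genes in brackets. In memory cells 40.4% of members rose and 40.4% fell, beside 31.4% and 39.1% of all genes.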

How the data were processed

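RNA of 16 samples was amplified from oligo-dT, labelled with Cy3 and hybridised to 1-colour Agilent arrays, per the labels' protocols, so signal lies near 3′ ends. The deposited scanner files hold intensities, and their processed signal was background-subtracted by the authors with Feature Extraction 9.5.3.1, per the file headers. A deposited table of linear intensities, whose scaling the sources used here do not give and whose median is 149 on every array, served as an alternative. Here log2 of the deposited processed signal was taken, the 75th percentile of each array's non-control probes subtracted, outlier spots left out and replicate spots averaged. Testing took in 27348 of 41174 probes, those well above background on 3 or more of the 4 arrays of some group, and a gene is represented by the one of its tested probes that was brightest on average. limma 3.58.1 (R 4.3.3) fitted 4 group means on all 16 arrays and gave 5 two-sided comparisons, with Benjamini-Hochberg adjustment over 18403 genes, or over the probes where a value is said to belong to a probe. The fit was tested on simulated data. Where a probe was below background in a whole group, folds are bounds.

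Members, gene lists and tests were chosen with earlier results of these data known. Full values were given for the 5 largest rises and 5 largest falls among called members in each response and the 4 largest each way in the other comparisons. The pairs of related enzymes were added for their roles. For members with an opposite pair of probes, the changes on those probes were given without the level on every array. The 2 largest rises and falls of each list of other genes were named, except 1 that is not reported here. The labels do not say that a replicate number marks an occasion, and p-values measure the spread between these samples. The number of arrays limits the precision. The alternatives were other scalings, background corrections, filters, probe rules, a replicate block and leaving out arrays.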

Additional observations from a re-analysis of the deposited data

Results flagged for a closer look

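Among the 47 tested members in 4 groups, 20 of 188 sets of 4 arrays held an array whose gap to the others was past Dixon's critical value, which chance alone passes in about 1 of 20 sets. Of these 20 values, 16 were on a replicate 1 array, namely 6 in naive resting, 5 in naive stimulated, 4 in memory stimulated and 1 in memory resting cells. Several of the values come from the same array, so they are not independent of each other. All values here are log2 levels, with the range of the other 3 arrays of the group.

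Memory stimulated replicate 1 stood high for Ezh2 at 2.26 (others 2.11 to 2.12), Mbd2 at 2.24 (1.89 to 1.91) and Setdb1 at 0.82 (0.37 to 0.43), and low for Hdac9 at -6.75 (-5.93 to -5.86). In memory resting cells replicate 1 stood low for Hdac6 at 0.00 (0.69 to 0.72), and replicate 4 stood low for Arid1b at 1.83 (2.04 to 2.07) and Ep300 at -0.59 (0.08 to 0.18) and high for Sirt2 at 2.72 (1.88 to 1.99).

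Naive stimulated replicate 1 stood low for Hdac5 at 1.05 (2.15 to 2.27), Hdac6 at -0.56 (-0.01 to 0.08), Mbd1 at 2.53 (2.90 to 2.96), Smarca2 at -0.54 (-0.03 to 0.05) and Suv39h2 at -0.28 (0.29 to 0.32). Naive resting replicate 1 stood low for Arid1a at 4.32 (4.68 to 4.75), Eed at 2.70 (3.28 to 3.35), Mbd1 at 3.1 (3.58 to 3.67), Sirt1 at 0.91 (1.59 to 1.66) and Smarce1 at 3.36 (3.90 to 3.95), and high for Hdac7 at 2.68 (1.67 to 1.84). Naive resting replicate 4 stood low for Dnmt3a at 0.55 (1.07 to 1.16).

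The responses of memory and naive cells differed with a call, by the interaction in limma, for Hdac9 at -2.31 (adjusted p = 0.00823) and for Sirt3 at 0.54 (adjusted p = 0.0396). Neither call was kept under every alternative. The Hdac9 value rests largely on signals near background, from a probe tested through memory resting cells alone. The Sirt3 call was lost when any of several single arrays was left out.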

How the results depend on the processing

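No member's call turned direction under any alternative, and of 745 recomputed changes of named members 718 stayed on their side of the threshold and 27 no longer passed. The 745 include cases where the array left out belongs to neither group compared. There the change is the same by design and only its adjusted p can move. Members that kept their call under every alternative were 17 of 19 rises and 10 of 19 falls in memory cells, 14 of 17 and 14 of 18 in naive cells, Hdac10 at rest, Hdac10 and Sirt3 after stimulation, and neither of the response differences. With median scaling, the members came to 11 falls in the memory response, 11 lower at rest, 9 higher after stimulation and 15 response differences above 0, and all genes to 4376 lower at rest, 3051 higher after stimulation and 4830 response differences above 0. With quantile scaling 2 members were lower at rest, 4 higher after stimulation and 2 had a response difference below 0. Normexp as planned was not run, since it failed on 3 arrays; with 36 spots on 4 arrays given the array's median background, 4 members were lower at rest, 4 response differences lay above 0 and 0 below, and all genes came to 1693 higher at rest, 1657 lower after stimulation and 1426 response differences below 0. In the authors' deposited table, members numbering 5 were higher and 3 lower at rest and 3 response differences lay below 0, with 2206 genes lower at rest and 1681 response differences above 0. With probes above background on all 16 arrays, which tests 45 members and leaves out Hdac9 and Sirt6, 1 was higher at rest, 0 response differences lay below 0, and all genes gave 1662 below 0. The mean of a gene's probes gave 2 members lower at rest.

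The same replicate number correlated between groups at -0.211 to 0.585, different numbers at -0.375 to 0.337, and the best match had the same number in 31 of 48 cases. This is a hint from the data that numbers may be shared occasions, but the labels do not say so and some same-numbered pairs correlated below 0, so the numbers were not taken as pairs. With the replicate block 8 members were lower at rest, 7 higher and 6 lower after stimulation, and 7 and 2 response differences lay above and below 0, with 2427 genes lower at rest and 1768 response differences above 0. Leaving out replicate 1 of all groups, chosen after seeing the data, gave 20 rises and 20 falls in memory and 18 and 21 in naive cells, 6 higher and 8 lower at rest, 6 higher and 3 lower after stimulation, and 2 and 3 response differences; it ended the naive call of Hdac4 (adjusted p = 0.0697) and the resting call of Suv39h1 (adjusted p = 0.0538).

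Leaving out 1 array gave, over all genes, 5451 to 5893 rises and 6819 to 7388 falls in memory and 6516 to 7215 and 5391 to 5722 in naive cells, 1881 to 3284 higher and 871 to 1961 lower at rest, 1411 to 2173 and 1846 to 2916 after stimulation, and 748 to 1336 and 2168 to 3045 response differences. For members it gave 19 rises and 16 to 19 falls in memory, 17 to 18 and 18 to 20 in naive cells, 3 to 4 higher and 0 to 7 lower at rest (7 without naive resting replicate 1), 2 to 6 higher and 1 to 3 lower after stimulation (6 higher without naive stimulated replicate 1), and 0 to 4 and 1 to 3 response differences (4 without naive stimulated replicate 1, 3 without naive resting replicate 4). The causes were not tested. Signals near background limit Hdac9 and Sirt6.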

Other observations

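Among the other chromatin regulators, a few genes differed between memory phenotype and naive cells by more than most members did. They were chosen after their values were seen. Kdm4d, a demethylase of lysine 9, averaged -1.58 ± 0.22 in memory stimulated and 0.49 ± 0.25 in memory resting cells, and -4.22 ± 0.23 in naive stimulated and -2.01 ± 0.32 in naive resting cells (SD, n = 4 each). It was higher in memory cells by 2.64 ± 0.18 after stimulation (SE; limma adjusted p = 9.32e-08) and by 2.50 ± 0.18 at rest (adjusted p = 9.88e-08). Uhrf1, which guides Dnmt1 to copied DNA, was higher in memory cells by 0.94 ± 0.16 after stimulation and by 1.01 ± 0.16 at rest (adjusted p = 0.000633 and 0.000325), while it passed the test in neither response. Chaf1a, a subunit of the histone chaperone CAF-1, was higher in memory stimulated cells by 1.15 ± 0.18 (adjusted p = 0.000382).

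Some regulators responded to different extents. Dot1l rose by 2.61 ± 0.16 in memory and by 3.95 ± 0.16 in naive cells, a response difference of -1.34 ± 0.23 (adjusted p = 0.000779). Tdg had a response difference of -1.27 ± 0.15 (adjusted p = 2.56e-05) and Jmjd6 one of 1.17 ± 0.15 (adjusted p = 5.87e-05). Phf19, a partner of Polycomb repressive complex 2, fell by 1.46 ± 0.19 in memory cells, with a response difference of -1.05 ± 0.26 (adjusted p = 0.0109). Smarca1, the other ISWI motor, was above background on all memory stimulated arrays and on none of the other groups, at least 2.15-fold higher than in memory resting cells (adjusted p = 0.000297) and at least 1.91-fold higher than in naive stimulated cells (adjusted p = 0.00111). Its probe entered the test through memory stimulated cells alone, so that a higher level there was part of its selection.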
